A study of Mus musculus with 14 samples.

Results

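The Bcl2 family decides whether a cell keeps or permeabilises its outer mitochondrial membrane, and 10 of its genes are described here across T cells sorted from mouse tumours. They were taken as a named list out of 25124 genes in the deposited count table: the survival genes Bcl2, Bcl2l1 and Mcl1, the pore formers Bax and Bak1, and the BH3-only death genes Bcl2l11, Bbc3, Bid, Bad and Pmaip1. All 10 were measured, and all 10 passed the filter on low counts.

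The study sequenced RNA of 14 samples from tumours of mice given an antibody that blocks PD-L1, or a control antibody. Per the labels, the animals were female C57BL/6 mice of 8 to 12 weeks with the genotype GATIR Foxp3Cre-rfp Gata3Cre-yfp, which every group carries, and each bore a subcutaneous tumour of AE17-OVA, a mouse mesothelioma line that expresses ovalbumin. On day 10 they received 200 µg of anti-PD-L1 (clone MIH5) or isotype control (clone 2A3) into the peritoneum, and tumours were taken on day 13. Cells were sorted by CD4, CD25, the red Foxp3 reporter and PD-1 into CD4 T cells (2 isotype and 3 anti-PD-L1 libraries), PD-1- regulatory T cells, or Tregs (2 and 2), and PD-1+ Tregs (2 and 3). There was no group without tumour or without antibody. The series calls the replicates biological, but the number of animals behind each library was not known here. The p-values therefore judge differences against the spread of these libraries, which may be technical in part.

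In healthy cells, survival proteins such as BCL2, BCL-XL (from Bcl2l1) and MCL1 hold the pore formers BAX and BAK in check on mitochondria. BH3-only proteins, made or activated when growth factors are lost, DNA is damaged or death receptors are engaged, bind the survival proteins or activate the pore formers directly. In T cells, cytokines that signal through the common gamma chain support Bcl2 and Mcl1, BIM (from Bcl2l11) removes activated and self-reactive cells, and regulatory T cells are known to depend on MCL1.

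Several libraries stand apart or go against their labels. Library totals ran from 10638848 to 15030804 counts, while the genes with at least 1 count numbered 8027 to 8801 for PD-1- Tregs, 9662 to 11312 for PD-1+ Tregs and 12119 to 14535 for CD4 T cells. Counts of the Y-linked genes Ddx3y, Eif2s3y, Kdm5d and Uty, summed, were 2767 in anti-PD-L1 CD4 library 3, 2966 in anti-PD-L1 PD-1- Treg library 2 and 2929 in anti-PD-L1 PD-1+ Treg library 3, against at most 1 in the other 11, although the mice are labelled female. Foxp3, the transcription factor that defines Tregs, stood at 114 to 198 CPM (counts scaled to 1e+06 per library) in the 4 PD-1- Treg libraries and 16.3 to 55.0 CPM in the 5 CD4 libraries. In the 5 PD-1+ Treg libraries it stood at 15.9 to 157 CPM, which overlaps the CD4 range. Cd3e, a subunit of the T cell receptor complex, was counted in every library. Cd4, used in the sort, was too, but at 19.7 and 100 CPM in isotype PD-1- Tregs and 160 and 295 CPM in treated ones. It stood at 138 to 314 CPM in PD-1+ Tregs and 261 to 518 CPM in CD4 T cells. Macrophage and monocyte markers, 12 genes summed, were at 339 to 816 CPM in PD-1- Tregs but at 3324 to 5861 CPM in PD-1+ Tregs and 1923 to 5206 CPM in CD4 T cells. Dendritic cell and MHC class II markers, 10 genes summed, were at 8654 to 15280 CPM in PD-1- Tregs. They were at 19650 to 48060 CPM in PD-1+ Tregs and 15450 to 28380 CPM in CD4 T cells. Treg markers, 6 genes summed, were at 413 and 466 CPM in the isotype CD4 libraries and at 999.8, 1115 and 1415 CPM in the treated ones. In these bulk libraries, fewer cells of a type and less RNA per cell cannot be told apart.

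The promoters of Bcl2 and Bcl2l11 are shown because these members had the smallest unadjusted p-values for treatment in PD-1+ Tregs. Each is the 250 bases before a RefSeq start on GRCm38.p6, which is mm10, the build in the submitters' processing notes. Bcl2 (NCBI gene 12043) lies on chromosome 1 from 106538176 to 106714290 and is read from the minus strand, so its window is chr1:106714291-106714540. Bcl2l11 (gene 12125) lies on chromosome 2 from 128126038 to 128162547, with its window at chr2:128125788-128126037 on the plus strand. Both windows lie outside the genes, just upstream of the first exon. Capitals mark the GC box GGGCGG on either strand and GTAAACA, a core bound by forkhead factors such as FOXO.
Bcl2: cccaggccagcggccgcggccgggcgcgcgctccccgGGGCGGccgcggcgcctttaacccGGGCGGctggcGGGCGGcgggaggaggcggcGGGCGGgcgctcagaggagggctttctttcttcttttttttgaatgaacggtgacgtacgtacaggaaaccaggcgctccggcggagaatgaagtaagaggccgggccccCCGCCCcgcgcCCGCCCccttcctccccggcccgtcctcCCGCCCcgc
Bcl2l11: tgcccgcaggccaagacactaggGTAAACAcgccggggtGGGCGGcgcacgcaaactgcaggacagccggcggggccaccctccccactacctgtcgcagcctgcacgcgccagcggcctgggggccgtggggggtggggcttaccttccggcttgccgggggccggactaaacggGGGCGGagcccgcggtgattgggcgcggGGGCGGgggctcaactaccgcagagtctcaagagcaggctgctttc
The Bcl2 window held 7 GC boxes and the Bcl2l11 window 3 GC boxes and 1 GTAAACA. Bcl2l11 has a second RefSeq start inside the gene, whose window (chr2:128127325-128127574, not shown) held 2 GC boxes and no GTAAACA. Of 32851 mouse promoter windows of this length, 32.7% held GGGCGG and 3.17% held GTAAACA. The TATA box TATAAA (12.4% of windows) and TTCNNNGAA, the core bound by STAT factors (7.02%), were in neither window, searched on both strands. The motifs are descriptions of the sequence and were not tested against the expression values.

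Levels of different genes were compared per length, on the deposited RPKM (reads scaled by gene length and mapped reads). Bax was the highest of the 10 in 14 of 14 libraries, with a median of 254 RPKM and a range of 120 to 371. Mcl1 followed at a median of 56.3 RPKM (40.3 to 137) and lay above both Bcl2l1 and Bcl2 in 14 of 14 libraries. Among the death genes, Bid had a median of 40.2 RPKM, Pmaip1 35.3 and Bad 30.4. Bcl2l1 stood at a median of 23.6 RPKM, Bcl2 at 9.49, Bak1 at 7.09, Bcl2l11 at 3.76 and Bbc3 at 2.27. Bax lay above Bak1, and Bid above Bcl2l11, in 14 of 14 libraries, whereas Bid lay above Bad in only 10 of 14, so those neighbours overlap.

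**Figure D1:**
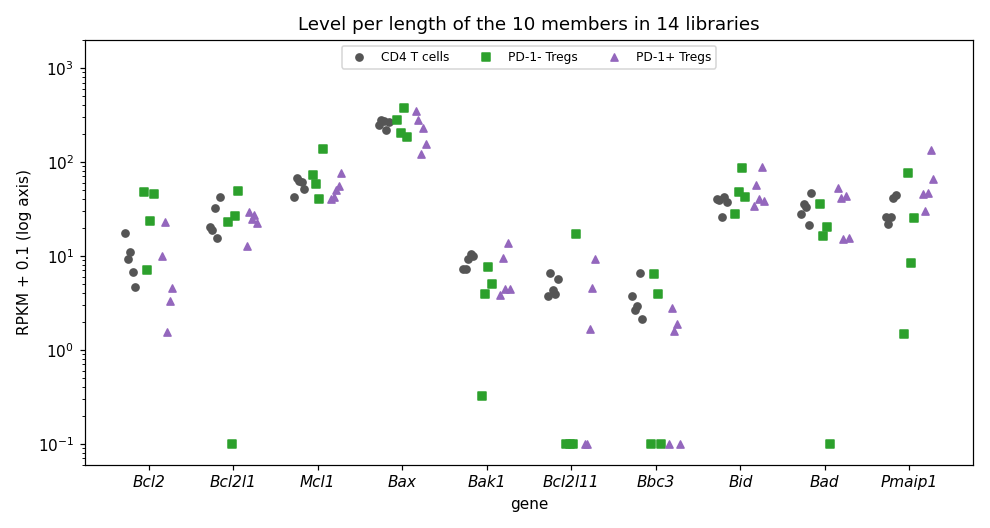
Deposited RPKM plus 0.1 of the 10 members on a log axis, with 1 point for each of the 14 libraries, by population; a point at the bottom is a gene listed at 0. Bax is the highest member in every library, and Bcl2l11 and Bbc3 are listed at 0 in 5 and 4 libraries.

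Bcl2, the founding survival gene, had the lowest levels of the series in PD-1+ Tregs from anti-PD-L1 tumours. On the scale of CPM, it was at 198 and 79.2 in the 2 isotype libraries of PD-1+ Tregs and at 3.00, 21.2 and 14.4 in the 3 treated ones. Every treated library lay below both isotype libraries, and below every other library of the study. The difference was -3.43 ± 0.77 on the log2 scale (SE; n = 2 and 3), with an unadjusted p of 0.000748 and an adjusted p of 0.479 by edgeR's quasi-likelihood test with Benjamini-Hochberg adjustment over 13434 genes, so Bcl2 did not pass. DESeq2 on the same counts gave an adjusted p of 0.000476, where it called 5.6% of 12881 genes. Over 26 alternative settings the log2 difference ran from -3.99 to -2.08 and the adjusted p from 0.000476 to 1.

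In the other populations Bcl2 overlapped between treatments. In PD-1- Tregs it was at 248 and 134 CPM with isotype and at 78.2 and 171 CPM with anti-PD-L1. In CD4 T cells it was at 96.6 and 77.8 CPM with isotype and at 80.1, 49.1 and 34.4 CPM with anti-PD-L1. The treatment difference in PD-1+ Tregs minus that in PD-1- Tregs was -2.81 ± 1.11 on the log2 scale (unadjusted p = 0.0265, adjusted p = 0.232 by edgeR), and minus that in CD4 T cells it was -2.75 ± 1.08 (unadjusted p = 0.0250, adjusted p = 1.00 by edgeR), so neither passed. These contrasts share the PD-1+ Treg libraries. Averaged over the 3 populations, the Bcl2 treatment difference was -1.57 ± 0.45 (unadjusted p = 0.00414, adjusted p = 0.130 by edgeR). DESeq2 gave an adjusted p of 0.00769 for that average, and over 25 alternatives the adjusted p ran from 0.00769 to 0.688.

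**Figure D2:**
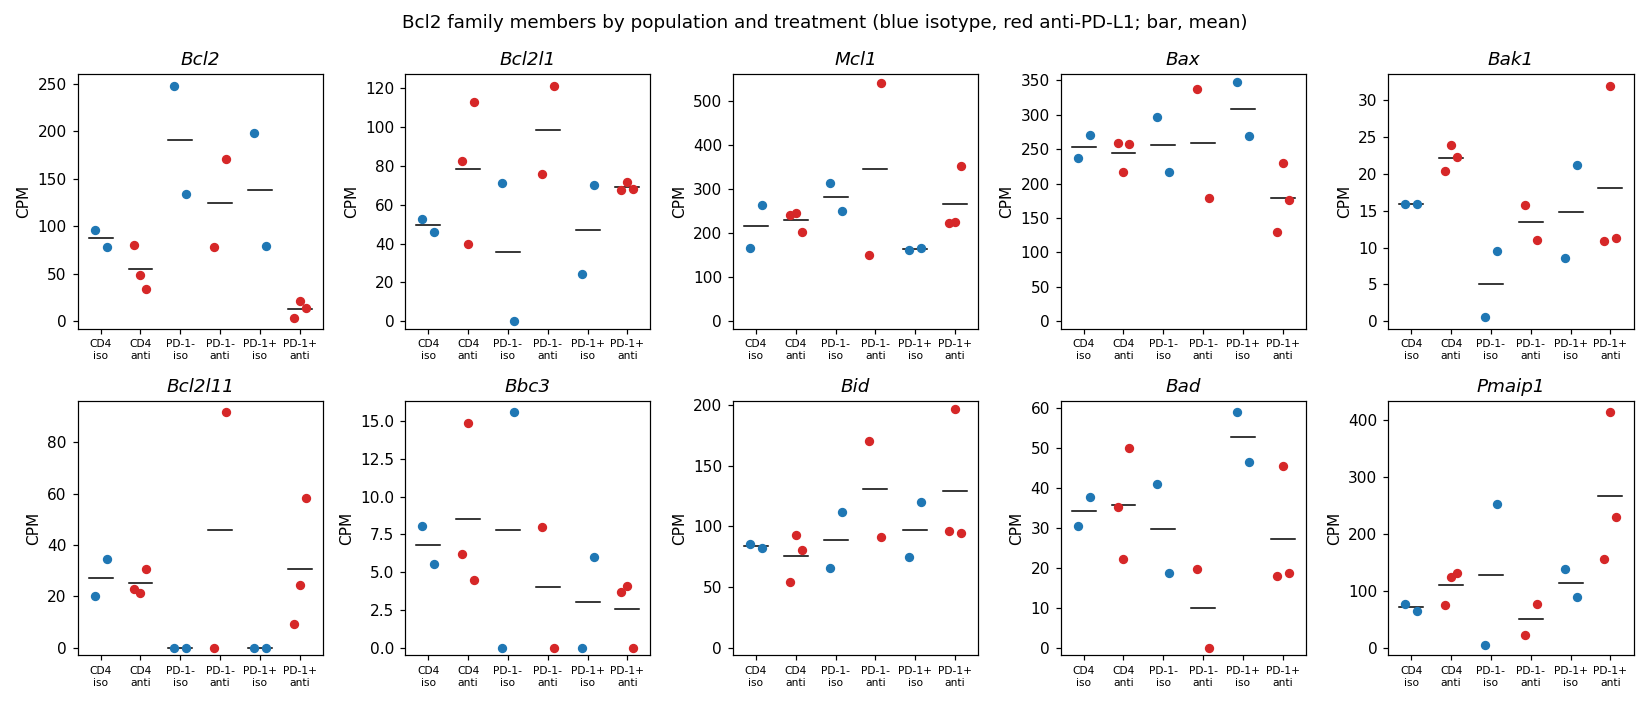
CPM of each member in every library, by population and treatment, with 1 panel and 1 linear axis for each gene; points are libraries and bars are group means. The 3 treated PD-1+ Treg libraries of Bcl2 sit at 3.00 to 21.2 CPM, and Bcl2l11 is at 0 in all 4 isotype Treg libraries.

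Across populations, Bcl2 averaged 158 ± 71.1 CPM (SD, n = 4) in PD-1- Tregs, 67.6 ± 25.2 (n = 5) in CD4 T cells and 63.2 ± 81.0 (n = 5) in PD-1+ Tregs. The low PD-1+ mean comes from the treated libraries: with isotype alone the means were 191 ± 80.4 CPM (n = 2) for PD-1- Tregs, 139 ± 84.1 (n = 2) for PD-1+ Tregs and 87.2 ± 13.3 (n = 2) for CD4 T cells. PD-1+ against PD-1- Tregs, the log2 difference over both treatments was -1.87 ± 0.56 (unadjusted p = 0.00605, adjusted p = 0.0825 by edgeR), with overlapping libraries. DESeq2 gave an adjusted p of 0.00513 for the same contrast, where it called 24.4% of genes. A call by edgeR came without treated PD-1- Treg library 1, the lowest of that population, which leaves 1 library in that arm. The other alternatives reached an adjusted p of up to 0.295. Macrophage and monocyte markers differed in the same contrast, as given above, and their part in it was not tested.

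B cells express Bcl2, and the means of Bcl2 and of B cell markers were both lower after anti-PD-L1 in PD-1+ Tregs and CD4 T cells. Of 10 B cell genes listed, 8 were in the table. Their summed level was 229 and 479 CPM in isotype PD-1+ Tregs and 130, 54.1 and 38.8 CPM in treated ones, with Ms4a1 (CD20) and Blk at 0 in all 3 treated libraries. In CD4 T cells the sum was 219 and 252 CPM with isotype and 53.5, 98.8 and 88.2 CPM with anti-PD-L1. Within each of these groups, the library with the highest Bcl2 did not have the highest sum. The isotype PD-1+ Treg library with 79.2 CPM of Bcl2 had the sum of 479 CPM, and the treated one with 3.00 CPM had 130 CPM. In PD-1- Tregs, isotype libraries with 248 and 134 CPM of Bcl2 had sums of 96.3 and 80.6 CPM. The treated library with the most B cell marker signal, 329 CPM, had the lowest Bcl2 of that population. Cd22 and Blk were at 0 in every PD-1- Treg library, isotype or treated, while Cd79b was at 45.1 to 77.9 CPM in the isotype ones. Markers of CD8 T cells and NK cells, 7 genes summed, went the other way in PD-1+ Tregs, from 0 to 0.0849 CPM with isotype to 23.5 to 60.1 CPM with anti-PD-L1. The part of either marker list in the Bcl2 difference was not tested.

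**Figure D3:**
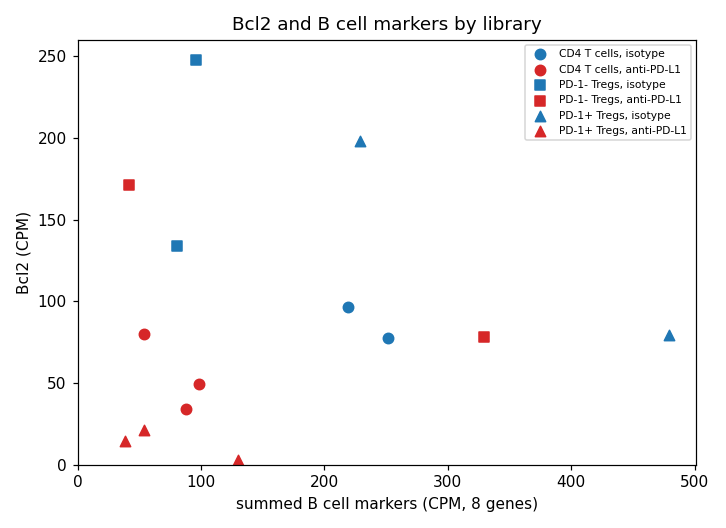
Bcl2 (CPM) against the summed level of 8 B cell marker genes (CPM) in each of the 14 libraries; shape gives the population and colour the treatment. The isotype PD-1+ Treg libraries are high on both axes relative to the treated ones, while the PD-1- Treg library with 248 CPM of Bcl2 has a marker sum of 96.3 CPM.

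The deposited count and RPKM of Bcl2 do not keep a constant ratio between libraries. The ratio of its count to its RPKM, scaled by library, spread 7.05-fold over the 13 libraries with at least 50 counts. The same ratio was constant for Mcl1, Bax, Bak1, Bbc3, Bid and Pmaip1, and spread 1.61-fold for Bcl2l1, 1.1-fold for Bad and 1.04-fold for Bcl2l11. Of 11834 genes with enough counts, 189 (1.6%) spread over 2-fold. In PD-1+ Tregs the Bcl2 RPKM was still lower without overlap after anti-PD-L1, at 1.44, 3.18 and 4.43 against 9.8 and 23.0. The order of the 2 isotype libraries there differed from that on CPM. In PD-1- Tregs the treated mean was lower on CPM (125 against 191) but higher on RPKM (34.2 against 27.5). Which unit is nearer the true level of Bcl2 was not tested. Its rank per length and its treatment differences, which are given on counts, both carry this limit.

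**Figure D4:**
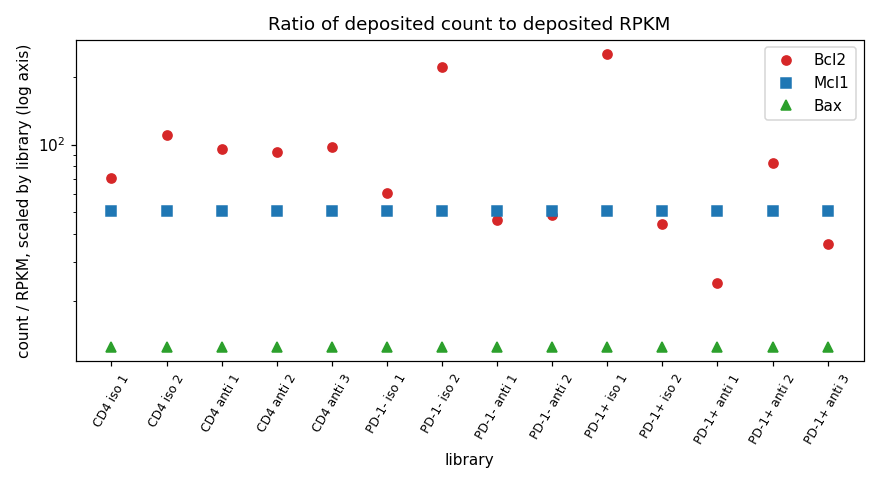
Deposited count divided by deposited RPKM, scaled by library, on a log axis for Bcl2, Mcl1 and Bax in each of the 14 libraries. The ratio is flat for Mcl1 and Bax and scatters for Bcl2.

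Bcl2l1 encodes BCL-XL, a survival protein that activated T cells make. Its mean was 66.8 CPM for CD4 T cells, 67.0 for PD-1- Tregs and 60.3 for PD-1+ Tregs. In treated PD-1+ Tregs it was tightly grouped at 67.8, 71.6 and 68.0 CPM, against 24.3 and 69.9 CPM with isotype, and the groups overlapped. PD-1- Tregs held it at 71.2 and 0 CPM with isotype and at 75.6 and 121 CPM with anti-PD-L1. The treated libraries lay above both isotype ones there, 1 of which had no count. Without isotype library 1, which leaves only the library at 0 in that arm, the adjusted p by edgeR was 0.00209. In CD4 T cells it was at 52.6 and 46.1 CPM with isotype and at 82.6, 40.0 and 113 CPM with anti-PD-L1.

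Mcl1, whose short-lived protein binds BAK and BIM, was the most evenly high survival gene. PD-1+ Tregs had 163 and 165 CPM with isotype and 223, 225 and 351 CPM with anti-PD-L1, so the treated libraries lay above without overlap. In PD-1- Tregs the values were 314 and 249 CPM with isotype and 150 and 540 CPM with anti-PD-L1. The treated pair held the lowest and the highest Mcl1 level of the study. In CD4 T cells Mcl1 was at 167 and 263 CPM with isotype and at 241, 244 and 201 CPM with anti-PD-L1. No Mcl1 comparison had an unadjusted p under 0.05 with all libraries. A call by edgeR for PD-1+ against PD-1- Tregs came without treated PD-1- Treg library 1, the lowest of the study. That fit leaves only the highest library of the study, at 540 CPM, in the treated PD-1- arm.

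Bax, which oligomerises into the mitochondrial pore, had similar means in the populations, at 248 ± 21.1 CPM (SD, n = 5) for CD4 T cells, 258 ± 72.0 (n = 4) for PD-1- Tregs and 231 ± 84.1 (n = 5) for PD-1+ Tregs. In PD-1+ Tregs it was at 348 and 269 CPM with isotype and at 130, 230 and 176 CPM with anti-PD-L1. All treated libraries lay below both isotype libraries, and the difference was -0.79 ± 0.32 on the log2 scale (unadjusted p = 0.0295, adjusted p = 0.596 by edgeR), which did not pass. In CD4 T cells Bax was at 238 and 270 CPM with isotype and at 259, 217 and 258 CPM with anti-PD-L1, and the PD-1- Treg groups overlapped as well.

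Bak1, the other pore former, stood far below Bax in every library. It was at 15.9 CPM in both isotype CD4 libraries and at 20.4, 23.9 and 22.3 CPM in the treated ones, which did not overlap. The Treg marker sum separated these libraries too, and its part was not tested. In PD-1- Tregs it was at 0.559 and 9.50 CPM with isotype and at 15.8 and 11.0 CPM with anti-PD-L1, again without overlap. Every PD-1- Treg library lay below every CD4 library, the nearest by under 0.1 CPM, as did 13% of the 13434 genes. On RPKM this separation was lost, since treated PD-1- Treg library 1 (7.51 RPKM) lay above both isotype CD4 libraries (7.08 and 7.10 RPKM). In PD-1+ Tregs, Bak1 ranged from 8.58 to 32.0 CPM and the treatments overlapped.

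Bcl2l11 encodes BIM, the BH3-only protein that removes T cells deprived of cytokine. It had no count in any of the 4 isotype Treg libraries. In PD-1+ Tregs given anti-PD-L1 it was at 9.35, 24.6 and 58.2 CPM. The mean of these 3 libraries was 125-fold above the level that 3 counts per isotype library would give (unadjusted p = 0.00862, adjusted p = 0.595 by edgeR). In PD-1- Tregs given anti-PD-L1 it was at 0 and 91.5 CPM, with a group mean 166-fold above the level of 3 counts per isotype library. The difference there (unadjusted p = 0.00798, adjusted p = 0.115 by edgeR) thus rested on 1 library, which is also 1 of the 3 with Y-linked counts. CD4 T cells had it in every library, at 20.1 and 34.4 CPM with isotype and at 23.0, 21.3 and 30.8 CPM with anti-PD-L1.

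An arm without counts was common in the Treg libraries: 25.1% of the 13434 genes had no count in either isotype library of PD-1- Tregs, and 11.7% in those of PD-1+ Tregs, against 1.25% in the isotype CD4 libraries. In the treated libraries the shares were 26.9%, 11.4% and 1.12%. DESeq2 called Bcl2l11 in PD-1+ Tregs with an adjusted p of 2.08e-20, and limma-voom with an adjusted p of 0.0291, where limma-voom called 1.11% of genes. Over its 26 alternatives the adjusted p ran from 2.08e-20 to 1. The edgeR adjusted p of the averaged treatment effect was 0.0746 for Bcl2l11. The difference of the treatment effect between PD-1+ Tregs and CD4 T cells had an unadjusted p of 0.0121 and an adjusted p of 1.00 by edgeR, and that between PD-1- Tregs and CD4 T cells an adjusted p of 0.217. Against CD4 T cells, the edgeR adjusted p was 0.322 in PD-1+ Tregs (18.4 ± 24.4 against 25.9 ± 6.30 CPM, SD, n = 5 and 5) and 0.126 in PD-1- Tregs (22.9 ± 45.8 CPM, n = 4).

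Pmaip1 encodes NOXA, a p53 target that binds MCL1. In PD-1+ Tregs it was at 139 and 89.3 CPM with isotype and at 156, 413 and 229 CPM with anti-PD-L1, with all treated libraries above. CD4 T cells had 77.1 and 65.3 CPM with isotype and 75.4, 125 and 132 CPM with anti-PD-L1, which overlapped. The isotype PD-1- Treg libraries lay furthest apart, at 4.56 and 252 CPM, with the treated ones between them at 23.3 and 76.1 CPM. The treated mean was the lower one, at 49.7 against 128 CPM. A treatment call by edgeR came without isotype library 2, in the other direction. That fit leaves only the library at 4.56 CPM in the isotype arm, below both treated ones. By population, the mean was 205 ± 127 CPM (SD, n = 5) in PD-1+ Tregs, 94.9 ± 31.0 (n = 5) in CD4 T cells and 89.0 ± 113 (n = 4) in PD-1- Tregs.

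Bid links death receptors to mitochondria once caspase-8 cuts it. Its level ran from 54.0 to 196 CPM over the 14 libraries, with means of 79.0 ± 14.8 CPM (SD, n = 5) for CD4 T cells, 110 ± 44.3 (n = 4) for PD-1- Tregs and 116 ± 47.5 (n = 5) for PD-1+ Tregs, and the treatments overlapped in all 3 populations. Bad, a sensitizer held back by growth factor signalling, was at 59.0 and 46.5 CPM in isotype PD-1+ Tregs and at 17.9, 45.5 and 18.7 CPM in treated ones. The treated libraries lay below, 1 of them by about 1 CPM, and on RPKM that library (43.0) lay above an isotype one (41.3). In PD-1- Tregs Bad was at 41.0 and 18.7 CPM with isotype and at 19.7 and 0 CPM with anti-PD-L1, which overlapped. Without treated library 1 there, only the library at 0 remained in its arm, and the adjusted p was 0.0100 by edgeR. Bbc3, which encodes the p53 target PUMA, never exceeded 15.6 CPM and had no count in 4 of the 14 libraries, all of them Tregs.

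Counted over the members, no comparison had a call at an adjusted p under 0.05 by edgeR. Of all genes, that threshold called 0.0149% for treatment of PD-1+ Tregs, 2.66% for PD-1- Tregs, 0.00744% for CD4 T cells and 1.23% for the average of the populations. It called 4.28% for PD-1+ against PD-1- Tregs, 0.35% for PD-1+ Tregs against CD4 T cells and 3.6% for PD-1- Tregs against CD4 T cells. For the differences of the treatment effect it called 1.46% (PD-1+ minus PD-1- Tregs), 0% (PD-1+ Tregs minus CD4 T cells) and 0.975% (PD-1- Tregs minus CD4 T cells). At an unadjusted p under 0.05 by edgeR, treatment of PD-1+ Tregs had 3 of the 10 members, against 8.06% of all genes. Treatment of PD-1- Tregs had 1 (20.1%), that of CD4 T cells 0 (1.15%) and the average 2 (14.8%). The contrast of PD-1+ with PD-1- Tregs had 1 (22.3%), and those with CD4 T cells had 1 for PD-1+ Tregs (12.4%) and 1 for PD-1- Tregs (28.6%). The differences of the treatment effect had 1 for PD-1+ minus PD-1- Tregs (16.4%), 2 for PD-1+ Tregs minus CD4 T cells (3.5%) and 1 for PD-1- Tregs minus CD4 T cells (14.3%).

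Other tools called more genes in general and some members. DESeq2 called 2 members for treatment of PD-1+ Tregs, against 5.6% of its genes, 1 for PD-1- Tregs (23.7%), 0 for CD4 T cells (0.385%) and 2 for the average (16.8%). For the populations it called 1 member between the Treg types (24.4%), 1 for PD-1+ Tregs against CD4 T cells (6.64%) and 1 for PD-1- Tregs against them (26.3%). For the differences of the treatment effect it called 0 for PD-1+ minus PD-1- Tregs (17.7%), 1 for PD-1+ Tregs minus CD4 T cells (2.32%) and 1 for PD-1- Tregs minus CD4 T cells (15.7%). Limma-voom called Bcl2l11 alone, for treatment of PD-1+ Tregs (1.11% of genes), for the average (2.63%), and against CD4 T cells for PD-1+ Tregs (4%) and PD-1- Tregs (25%). It called no member for treatment of PD-1- Tregs (5.11%) or CD4 T cells (0%), between the Treg types (9.92%), or for the differences of the treatment effect (2.97%, 0% and 2.18% in the same order).

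By overlap of CPM alone, 6 of the 10 members separated the treatments in PD-1+ Tregs, against 19.2% of all genes. On RPKM 5 did, without Bad, against 20% of the same genes. Mcl1, Bcl2l11 and Pmaip1 lay higher after anti-PD-L1 (7.69% of all genes did), and Bcl2, Bax and Bad lay lower (11.5%). The members in each direction thus mixed survival and death genes. In PD-1- Tregs 2 members, Bcl2l1 and Bak1, lay higher without overlap, against 26.5% of all genes, and in CD4 T cells 1 did, Bak1, against 27.9%. No member separated PD-1+ from PD-1- Tregs, as 4.02% of all genes did. None separated PD-1+ Tregs from CD4 T cells, against 6.43%, and 1 (Bak1, lower, as 13% of genes were) separated PD-1- Tregs from CD4 T cells, against 14% in either direction and 1.01% higher. On RPKM no member did, against 14.2%.

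Of the wider pathway, 13 of 15 other Bcl2 family genes had enough counts to test, and none passed in any of the 10 comparisons. No gene of the apoptosome, caspase and inhibitor list (17 tested), the death receptor list (11), the p53 target list (14), the survival cytokine list (16) or the list for control of MCL1 protein (6) passed for treatment of PD-1+ Tregs or CD4 T cells. After anti-PD-L1, 3 genes fell in PD-1- Tregs. Casp8, which encodes the initiator caspase of death receptors, went from 410 and 320 CPM to 142 and 111 CPM (-1.53 ± 0.33 on the log2 scale, adjusted p = 0.0311 by edgeR). Gsk3b, a kinase that marks MCL1 protein for degradation, went from 1462 and 2107 CPM to 347 and 580 CPM (-1.94 ± 0.38, adjusted p = 0.0194 by edgeR). Aifm1, a mitochondrial flavoprotein that can enter the nucleus in dying cells, went from 131 and 16.6 CPM to 0 in both libraries (adjusted p = 0.00528 by edgeR). Its isotype mean was 312-fold above the level that 3 counts per treated library would give. Limma-voom with quality weights called 0 of all 13434 genes in this comparison, and edgeR on the PD-1- Treg libraries alone called 0 of 8558, so these 3 calls were lost there. Over 26 alternatives Aifm1 passed in 24, Gsk3b in 21 and Casp8 in 13. Casp8 was lost without any 1 of 7 libraries, with the highest adjusted p of 0.0825 without treated PD-1- Treg library 2. Gsk3b was lost without isotype library 2 (0.0519) or treated library 1 (0.0633) of PD-1- Tregs, by edgeR.

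Averaged over the populations, Il2rb, the beta chain of the IL-2 and IL-15 receptors, rose by 1.25 ± 0.23 on the log2 scale (adjusted p = 0.0219 by edgeR), and Aifm1 fell (adjusted p = 0.0119 by edgeR). Aifm1 had no count in 2 of the 14 libraries, both of them treated PD-1- Tregs. With 1 library left out, its log2 difference ran from -4.91 to -3.90 on average and from -13.7 to -10.7 in PD-1- Tregs. It did not pass for treatment of PD-1+ Tregs or CD4 T cells, so the average does not show a fall shared by the populations. Il2rb was at 70.2 to 187 CPM in the 6 isotype libraries and at 129 to 405 CPM in the 8 treated ones, and within each population the treated libraries lay above. Il2rb passed in 17 of 25 alternatives, with an adjusted p of 0.178 under quality weights and of 0.125 by edgeR without isotype CD4 library 2. In the same average all 6 Treg markers were higher, and 1, Tnfrsf18, passed the edgeR test; their part in the Il2rb difference was not tested.

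Between populations, other genes of these lists passed by edgeR, and several of those calls were lost under alternatives. PD-1+ against PD-1- Tregs, Cdkn1a, the p53 target that encodes p21, was higher by 1.45 ± 0.26 on the log2 scale (adjusted p = 0.0101 by edgeR), at 173 to 328 CPM against 74.3 to 120 CPM. Birc3, an inhibitor of apoptosis in TNF receptor signalling, was lower (-1.45 ± 0.36, adjusted p = 0.0447 by edgeR), at 38.1 to 99.3 CPM against 107 to 237 CPM. Aifm1, Dffb, which encodes the nuclease that cuts DNA in apoptosis, and the TNF receptor gene Tnfrsf1a were also higher in PD-1+ Tregs (adjusted p = 0.00594, 0.0311 and 0.0269 by edgeR). Dffb and Tnfrsf1a had at most 0.252 CPM in any PD-1- Treg library, and Aifm1 had no count in the treated ones. Limma-voom with quality weights called 1 gene of the whole table here and none of these 5, whose adjusted p was 0.155 to 0.223. Of 27 alternatives, Aifm1 passed in 25, Cdkn1a in 24, Tnfrsf1a in 12, and Dffb and Birc3 in 10 each. Of the 14 libraries left out in turn, 8 cost the Tnfrsf1a call and 11 each those of Dffb and Birc3, and the adjusted p of Birc3 reached 0.141 by edgeR without isotype PD-1+ Treg library 1. Of the 12 macrophage and monocyte markers, 10 were also higher in this contrast by the edgeR test. So were 6 of 10 dendritic cell and MHC class II markers and 1 of 8 B cell markers. The part of these markers in the differences was not tested.

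PD-1- Tregs against CD4 T cells, the kinase gene Pim1 was higher (1.42 ± 0.29, adjusted p = 0.0222 by edgeR), at 152 to 362 CPM against 65.5 to 147 CPM. Aifm1, Dffb, Tnfrsf1a, the death ligand gene Fasl and the p53 target Sesn2 were lower (adjusted p = 0.00951, 0.0328, 0.0210, 0.0248 and 0.0427 by edgeR). Only 27.1% of all genes were higher in this contrast, and 447 of its 484 edgeR calls were lower. Dffb and Sesn2 had no count in any PD-1- Treg library, and Aifm1 had none in the treated ones. Of the macrophage and monocyte markers 8 of 12 were called lower, as were 5 of 10 dendritic cell and MHC class II markers. Their part in these differences was not tested. Of 27 alternatives Aifm1 passed in 25, Pim1 and Tnfrsf1a in 19 each, Dffb and Fasl in 15 each and Sesn2 in 11, and all 6 were lost under quality weights. PD-1+ Tregs against CD4 T cells, Jak1, a kinase of gamma chain receptors, was lower by edgeR (-1.02 ± 0.17, adjusted p = 0.0263), at 208 to 420 CPM against 506 to 662 CPM. Jak1 passed in 17 of 27 alternatives and was lost without any 1 of 7 libraries, with the highest adjusted p, 0.269 by edgeR, without isotype PD-1+ Treg library 1. Il2ra, which encodes the CD25 used in the sort, was higher in both Treg populations than in CD4 T cells, which the sort fixes. These population contrasts share libraries.

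The genes most like 3 of the members were found by Pearson's r of log2 CPM over the 14 libraries, among 8834 genes with a mean of at least 10 CPM. The values share depth and library complexity, and no test was made. Bcl2 was most like Amer1 (r = 0.885), Id3 (0.884) and Rpl8 (0.866). Bcl2l1 was most like Vamp3, Trmt1l and Casp1 (each 0.977), and Bcl2l11 was most like Mfge8 (0.997), Amacr (0.933) and Accs (0.921). Bcl2l1 had no count in 1 of the 14 libraries and Bcl2l11 in 5, and on the log2 scale these libraries weigh heavily in r. A gene missing from the same libraries can therefore rank high without following the member in the others.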

How the data were processed

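Smart-seq2 libraries (full-length cDNA from few cells, without molecular identifiers, per the labels' protocols) of 14 samples were analysed from 2 deposited tables. The authors deposited raw counts per gene and RPKM values per gene; build mm10, DESeq2, HOMER 3.12, HISAT2 2.0.4 and SAMtools appear in the submitters' processing notes without a role. Annotation and strand setting: not given in the sources used here. Reads of overlapping genes may therefore be shared.

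Counts of all genes were fitted with edgeR 4.0.16 (R 4.3.3; TMM scaling, filterByExpr with a minimum count of 10, robust quasi-likelihood fit) over the 6 groups of population and treatment. Of 25124 genes 13434 were tested, in 10 comparisons, with Benjamini-Hochberg adjustment within each and a threshold of 0.05. A standard error is the log2 fold change divided by the square root of F. CPM is counts per 1e+06 of the TMM-scaled library. A gene at 0 throughout an arm is set against the level of 3 counts per library. That level allows for the sampling of reads alone and is no bound on expression. Libraries of 1 group spread more than that: Bcl2l1 had 765 and 0 counts in the isotype PD-1- Treg libraries. RPKM served for levels between genes and, as log2(RPKM + 1), as an alternative with limma 3.58.1. DESeq2 1.42.0 was another. Tested on simulated data for the PD-1+ Treg treatment comparison at the fitted spread (13065 genes), the fit recovered 31% of genes changed by 3 on the log2 scale and 51% of those changed by 6. The changed genes had a mean of at least 10 CPM, and all libraries had the same level before the change. Recovery was not simulated for lower genes such as Bbc3 (mean 5.46 CPM) or for the frequent zeros of the Treg libraries.

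The 10 members were named as a list, and every member is described. Genes of the context lists are named where they passed the threshold, at most 4 for each list and comparison, by adjusted p. A fold change is printed for a member only where its unadjusted p was under 0.05 by edgeR; the few values without a left-out library are exceptions. The members and lists were chosen with earlier results of these data known. Samples were grouped by their labels, and alternatives covered scaling, filter, tool, unit, replicate block and each library left out. The removal of the 3 libraries with Y-linked counts and the overlap on RPKM were chosen after seeing the data.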

Additional observations from a re-analysis of the deposited data

Results flagged for a closer look

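Among the pathway genes, 4 had a treatment effect that differed between populations by the interaction term of the edgeR fit, and each of these calls was lost under several alternatives. Limma-voom with quality weights and a fit of the Treg libraries alone (11671 genes) called no gene for PD-1+ minus PD-1- Tregs. Of 27 alternatives for that difference, Aifm1 passed in 18, Gsk3b in 14, Il2rg in 10 and Foxo1 in 5. Without isotype PD-1+ Treg library 2 the adjusted p by edgeR was 0.106, 0.147, 0.166 and 0.186 in that order. For PD-1- Tregs minus CD4 T cells, Aifm1 passed in 19 of 27, and without isotype CD4 library 1 its adjusted p was 0.137 by edgeR. Aifm1 differed between PD-1+ and PD-1- Tregs (adjusted p = 0.0166) and between PD-1- Tregs and CD4 T cells (adjusted p = 0.0162), with no count in the treated PD-1- Treg libraries against 46.6, 19.1 and 122 CPM in the treated PD-1+ Treg libraries. Gsk3b differed between PD-1+ and PD-1- Tregs by 2.68 ± 0.52 on the log2 scale (adjusted p = 0.0273 by edgeR), at 1018 and 791 CPM with isotype and 1455, 1040.0 and 2034 CPM with anti-PD-L1 in PD-1+ Tregs, beside its fall in PD-1- Tregs. Il2rg, the common gamma chain of the IL-2 and IL-7 receptors, differed by 1.40 ± 0.28 (adjusted p = 0.0319 by edgeR). It was at 3146 and 2541 CPM with isotype and 4206, 4372 and 4975 CPM with anti-PD-L1 in PD-1+ Tregs, and at 5043 and 6945 CPM against 3597 and 3599 CPM in PD-1- Tregs. Foxo1, a forkhead factor that promotes Bcl2l11 transcription, differed by 3.34 ± 0.74 (adjusted p = 0.0461 by edgeR). It was at most 42.0 CPM with isotype and 95.5, 58.1 and 87.5 CPM with anti-PD-L1 in PD-1+ Tregs, and at 145 and 266 CPM against 61.2 and 40.8 CPM in PD-1- Tregs. The 2 differences of Aifm1 share the PD-1- Treg libraries.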

How the results depend on the processing

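The count of members called by edgeR was 0 in each of the 10 comparisons and moved with the tool and with single PD-1- Treg libraries. DESeq2 called 1 member in PD-1- Tregs for treatment (Bcl2l11), 2 in PD-1+ Tregs and 2 on average over the populations (Bcl2 and Bcl2l11), 1 for PD-1+ against PD-1- Tregs (Bcl2), and 1 each (Bcl2l11) for PD-1+ Tregs against CD4 T cells, PD-1- Tregs against CD4 T cells and the differences of the treatment effect of either Treg population minus CD4 T cells. Limma-voom called 1 (Bcl2l11) for treatment in PD-1+ Tregs, on average, and for either Treg population against CD4 T cells. For PD-1+ Tregs against CD4 T cells, quality weights and the libraries of the populations compared alone also called 1 (Bcl2l11). Leaving out 1 library at a time gave 0 to 2 members for treatment in PD-1- Tregs, 0 to 2 on average, 0 to 3 for PD-1+ against PD-1- Tregs, 0 to 1 for PD-1- Tregs against CD4 T cells, 0 to 1 for the difference PD-1+ minus PD-1- Tregs, 0 to 2 for PD-1- Tregs minus CD4 T cells, and 0 in the rest. All of these calls came without 1 of the 4 PD-1- Treg libraries: Bcl2l1 without isotype library 1, Pmaip1 without isotype library 2, Bcl2l11, Bad, Bcl2 or Mcl1 without treated library 1, and Bcl2l11 against CD4 T cells without treated library 2. The arm then holds 1 library, which is assumed to vary like the other groups. The share of all genes called in these fits is not given here, so their member counts cannot be set against it. RLE scaling, library totals, no filter, the log2 RPKM fits and the removal of the 3 libraries with Y-linked counts called 0. The replicate block by title number and by bracketed number also called 0, and with the first the Bcl2 difference in PD-1+ Tregs was -3.29 (adjusted p = 1 by edgeR). Same-numbered libraries did not deviate together (r from -0.0168 to 0.0957 over 6 pairs by title number, and -0.0143 to 0.063 over 13 pairs by bracketed number), so this check did not establish a pairing. The 3 libraries with Y-linked counts are the 3 that carry bracketed number 3, which ties these 3 to one another; for the other numbers no such mark was seen. No direction reversed under any of these alternatives for the 13 member results with an unadjusted p under 0.05. Bcl2l11 in PD-1- Tregs has no value without treated library 2, since both arms are then at 0, nor without the Y-linked libraries. Without treated library 2, its treatment difference in PD-1- Tregs minus CD4 T cells was 0.123 on the log2 scale. That value holds the CD4 T cell part alone, so its unchanged direction says nothing about PD-1- Tregs. The bracketed block was not run for treatment within a population. Of 24 pathway calls outside the members, 24 passed with DESeq2 and RLE scaling, 22 with library totals, 21 without the filter, 19 with limma-voom, 3 with quality weights, 9 of 22 with only the populations compared, 15 on log2(RPKM + 1), 7 with the block by title number, 3 of 19 with that by bracketed number and 13 once the 3 libraries with Y-linked counts were removed. With 1 library left out, 9 to 22 of them passed, with 9 without either isotype CD4 library, and none reversed. The alternatives for these genes were added after seeing the data. The biological coefficient of variation was 1.22 with 2 or 3 libraries a group, which limits what could be called, and zeros in low-complexity libraries limit Bcl2l11 and Bbc3 most.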

Other observations

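Bcl2a1b, a member of the A1 family of NF-kB target survival genes, averaged 102 ± 36.8 CPM (SD, n = 5) in PD-1+ Tregs, 64.0 ± 10.4 (n = 5) in CD4 T cells and 56.0 ± 23.1 (n = 4) in PD-1- Tregs. Its near-identical copy Bcl2a1d averaged 28.5 ± 10.1, 19.0 ± 6.42 and 9.56 ± 3.76 CPM in the same order. The division of reads between these copies by the counting is not known here, and each level is uncertain. Neither passed the edgeR test in any comparison. The BH3-only genes Bik and Bmf had no count in any of the 4 PD-1- Treg libraries, and Bik had none in 4 of the 5 PD-1+ Treg libraries. Hrk and Bcl2l10 had no count in any of the 14 libraries. Bnip3l, a mitophagy receptor, was counted in every library at 38.4 to 161 CPM.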
